A study of Mus musculus with 20 samples.

Results

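The promoters of 50 genes of the actin cytoskeleton were followed by DNA methylation in hematopoietic stem cells (HSCs) of mice given repeated 5-fluorouracil (5FU). The genes encode actins, the proteins that branch, lengthen, sever and crosslink actin filaments, the enzymes that direct them, and the myosins and tropomyosins that act on them. A promoter was taken as every deposited bin of 100 bp within 1 kb of any RefSeq transcription start site (TSS) of the gene in mm10, which gave 721 bins, against 186007 bins near the TSS of any of 28268 genes and 1201951 bins in the whole series. Methylation was measured by reduced representation bisulfite sequencing (RRBS), which reads CpG sites in CpG-rich restriction fragments, in 20 samples.

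The 5FU-treated samples were 6 after 2 cycles (2x), 4 after 4 cycles (4x) and 6 after 10 cycles (10x), and the untreated ones were 4 (0x). 5FU is an antimetabolite that kills dividing cells and thereby drives HSCs, which are mostly quiescent, into division. All groups were female C57BL/6J mice, 3 months old when the study began. Injections were intraperitoneal and 3 weeks apart, and HSCs were taken 1 month after the last cycle. According to the methods they were sorted from bone marrow as Lin- cKit+ Sca1+ CD34- Flk2- CD150+, whereas the labels give blood as the tissue. Nothing in the labels ties a sample to its own mouse, and p-values here accordingly cover only the spread from sample to sample, part or all of which can be technical. In DNA from many cells, a change in the share of one kind of cell and a change within each cell cannot be told apart. In 0x, the 6 of 11 HSC and progenitor marker genes with a usable promoter value had a median of 4.04% methylation, the highest of them 6.35%, and the 2 of 11 genes of mature blood cells stood at 48.3% and 69.3%. Of the genes of other tissues, 3 of 8 had a value, and these spanned 1.47% to 95.3%. The median difference from 0x of the 2 genes of mature blood cells was +4.20, +17.2 and +13.7 points in 2x, 4x and 10x, that of the HSC and progenitor genes -1.34, +1.97 and -0.687, and that of the other tissues +2.04, +1.64 and -1.31. None passed an adjusted p under 0.05 (limma), 1 gene of mature blood cells in 10x and 1 of other tissues in 2x were higher at an unadjusted p under 0.05, and their part in the results was not tested.

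Actin polymerises into filaments that push the membrane forward, hold cells to their surroundings and, with myosin, contract. The Arp2/3 complex starts branches on existing filaments when WASP and WAVE proteins switch it on, formins and Ena/VASP proteins lengthen filaments, and cofilin takes them apart. Kinases such as ROCK, PAK and LIMK pass signals to these proteins, and in HSCs this machinery is known for its part in homing, retention in the niche and cell polarity.

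Each deposited value is a percent of methylated CpG calls, without read numbers, so the depth behind it is unknown. The methods say that bins missing in a sample were filled with the mean of the group, and filled values are not marked. Over all deposited bins in which a value recurred in part of a group, it lay within the range of the other samples of that group in 96.6% to 98.6%, and equalled their mean in 1.217% to 2.50%. The 721 bins were therefore read in 3 classes. In 166 (23.0%) every group varied and no value other than 0 or 100 recurred exactly within a group; these are called bins without repeated values and carry the main results. In 324 bins no such value recurred but at least 1 group stood at 0 or 100 throughout, and in 231 a value recurred exactly within a group. A value filled in only 1 sample of a group, or filled at 0 or 100, is not recognised in this way. Such values can remain in the bins without repeated values. The corresponding share of bins without repeated values was 17.7% near the TSS of all genes. At least 1 such bin was found in 46 of the 50 genes. The exceptions were Actn4 (a crosslinker of filaments), Dstn (destrin, a relative of cofilin), Arpc2 (an Arp2/3 subunit) and Rac2 (the Rac GTPase of blood cells).

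The results turn on 5 of these bins, which are shown because they held the differences of at least 10 percentage points with an unadjusted p under 0.05. They are given 5′ to 3′ on the plus strand of mm10, with every CpG in capitals. Distances run from the start to the nearer edge of a bin. The Wasf2 bin lies at chr4:133130400-133130499, 32 bp before the start, and holds 5 CpGs. The Myl9 bin (chr2:156774900-156774999) lies 409 bp before the start and holds 3 CpGs. The Actr3 bin (chr1:125436600-125436699, 873 bp before the start) and the Cfl1 bin (chr19:5489500-5489599, 856 bp before the start) hold 2 CpGs each. These 4 bins are upstream sequence in which RefSeq annotates no gene. The Wipf1 bin (chr2:73454800-73454899) holds 9 CpGs and lies in an intron of Wipf1, 911 bp before an internal start.
Wasf2: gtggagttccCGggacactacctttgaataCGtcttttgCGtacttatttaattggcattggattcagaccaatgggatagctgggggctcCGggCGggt
Myl9: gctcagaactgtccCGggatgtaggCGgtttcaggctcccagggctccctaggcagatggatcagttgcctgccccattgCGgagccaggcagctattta
Actr3: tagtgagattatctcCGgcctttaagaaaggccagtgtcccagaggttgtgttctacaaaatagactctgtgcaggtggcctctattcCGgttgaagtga
Cfl1: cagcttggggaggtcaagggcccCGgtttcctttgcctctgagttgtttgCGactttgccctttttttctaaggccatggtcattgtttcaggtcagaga
Wipf1: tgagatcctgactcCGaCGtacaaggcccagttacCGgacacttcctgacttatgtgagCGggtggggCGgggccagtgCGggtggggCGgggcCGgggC
The Wasf2 and Wipf1 bins are the denser in CpG, and the other 3 bins carry only isolated CpGs.

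Most actin cytoskeleton promoters were nearly free of methylation in 0x. The median over the 46 genes with bins without repeated values was 2.80%, and 40 of them (87.0%) lay under 10%, against a median of 3.59% and 70.5% under 10% for 14937 genes. The same 40 genes lay under 10% in all 4 groups. By bin, 151 of 166 (91.0%) were under 10% and 5 (3.01%) over 50%, against 77.2% and 10.8% of 32880 bins near all TSSs. Member bins held a median of 10 CpGs and those of all genes 9, and at like CpG density the member bins were also the lower in mean methylation. With 1 to 4 CpGs the means were 20.3% over 27 member bins and 39.0% over all TSS bins, with 5 to 9 CpGs 5.21% and 11.1%, and with 10 or more 2.25% and 3.88%. These are descriptions without a test, since bins of a gene share their source. A gene level given below rests on the bins without repeated values, which are few in most genes. Over all deposited bins, 35 of the 50 genes (70%) lay under 10% in 0x, with a median of 3.15%, against 32.03% under 10% and a median of 27.2% for 28268 genes.

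The cytoplasmic actins, Actb (beta actin) and Actg1 (gamma actin), lay below the median of the 46 genes. Actb stood at 4.36, 0.201, 0.951 and 2.58% in the 0x samples and Actg1 at 0.0377, 1.74, 2.17 and 0.0775%. Both genes kept a group mean under 10% after every number of cycles, although single treated samples reached 17.3% for Actb and 15.6% for Actg1, both in 2x. The Actb level rests on 4 of its 20 bins, and all 20 averaged 12.3% in 0x. Of these, the 14 bins at the start of the curated transcript averaged 1.84%. The 6 bins at a start that only a predicted transcript uses averaged 36.7%.

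Among the crosslinking and adhesion genes, all 5 with a value lay between 1.56% and 3.98% in 0x. They are Actn1 (alpha-actinin), Ezr (ezrin, which ties filaments to the membrane), and Vcl, Tln1 and Zyx (vinculin, talin and zyxin of focal adhesions). Of the filament turnover genes, all 6 with a value lay under 10%, with Cfl2 (the muscle-type cofilin) lowest at 0.996% and Gsn (gelsolin, which severs filaments) highest at 7.65%. The values of Actn1 and Gsn rest on 2 of 28 and 4 of 22 bins, and over all deposited bins these genes averaged 32.9% and 35.3% in 0x, with methylated bins at other starts described below. Pfn1 and Pfn2, the profilins that deliver actin monomers, had 2.36% and 1.37%, and Coro1a (coronin of leukocytes) 5.75% on 1 bin. Pfn1 shares all its 25 bins with Eno3, whose start lies nearby, and 10 of the 50 genes share at least 1 bin with a neighbour in this way, so that a value there belongs to both genes.

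In the bins without repeated values, the subunits of the Arp2/3 complex were low except Actr3. In 0x, Arpc1b had 0.806%, Arpc1a 0.866%, Arpc4 0.928%, Actr2 1.20%, Arpc3 1.96% and Arpc5 5.32%. Actr3, which encodes Arp3 and with Actr2 forms the base of a new branch, had 13.7 ± 6.27% (SD, n = 4). In that gene 2 bins past the start were under 10% in 0x and the bin 873 bp upstream, printed above, raised the mean. The activators Wasl (N-WASP), Wasf1 and Wasf2 (WAVE1 and WAVE2) and Cttn (cortactin) lay between 1.66% and 6.82%, and Wipf1, whose product WIP stabilises WASP, at 17.01 ± 1.83% (SD, n = 4). Over all deposited bins, Wasf2 averaged 18.6% in 0x. Its first start had 5.32% on 8 bins, and a start that only predicted transcripts use had 71.8% on 2 bins.

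The elongation factors followed the same pattern. Diaph3, a formin, was the lowest of all 46 genes at 0.436%. Diaph1, Fmnl1, Vasp and Enah (Mena) lay between 1.85% and 3.16%, and Evl, the Ena/VASP protein of blood cells, stood apart at 25.9, 23.6, 24.1 and 29.0% in the 0x samples. The Evl level came mainly from 1 bin at its second start, at 94.4 to 100% in 0x. At the first start, its bins without repeated values had at most 9.27% in any 0x sample. Among the genes that act upstream of the filament proteins, Rac1 had 1.02%, Cdc42 2.44%, Rhoa 2.90% and Rhob 3.43%. Of the kinases, Rock1, Rock2, Pak1, Pak2 and Limk1 lay between 1.81% and 5.84%, and Limk2, which phosphorylates cofilin, at 33.95, 17.03, 19.6 and 17.3%. The Limk2 level came mainly from 1 bin at its second start, at 60.6 to 76.1% in 0x. Its other bins without repeated values reached 42.4% at most, in 0x sample 01. Over all deposited bins, Enah averaged 19.9%, Cdc42 17.2%, Pak1 15.1% and Limk1 21.4% in 0x, above their levels in the bins without repeated values.

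Genes of contraction split widely. Myh9 and Myh10 (heavy chains of non-muscle myosin) and Tpm4 (tropomyosin) lay under 3%, while Tpm1 had 14.1 ± 3.70% and Myl9, a regulatory light chain of smooth muscle and non-muscle myosin, 33.7 ± 5.52% (SD, n = 4 each). The Tpm1 level came mainly from 1 bin with a single CpG, at 52.9 to 95.1% in 0x. That bin lies at a start used only by predicted transcripts. The other Tpm1 bins without repeated values had at most 12.9% in 0x. Over all deposited bins the order of the tropomyosins was the reverse, with Tpm1 at 5.64% and Tpm4 at 15.35% in 0x. Their levels above rest on 6 of 28 and 3 of 14 bins. Myl9 was the highest of the 46 in 0x, with 28.1 to 41.2% in the 4 samples. In the order Myl9, Evl, Limk2, Wipf1, Tpm1 and Actr3, the 0x samples of each gene overlapped those of the next, so that these levels rank the means and not the samples.

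**Figure D1:**
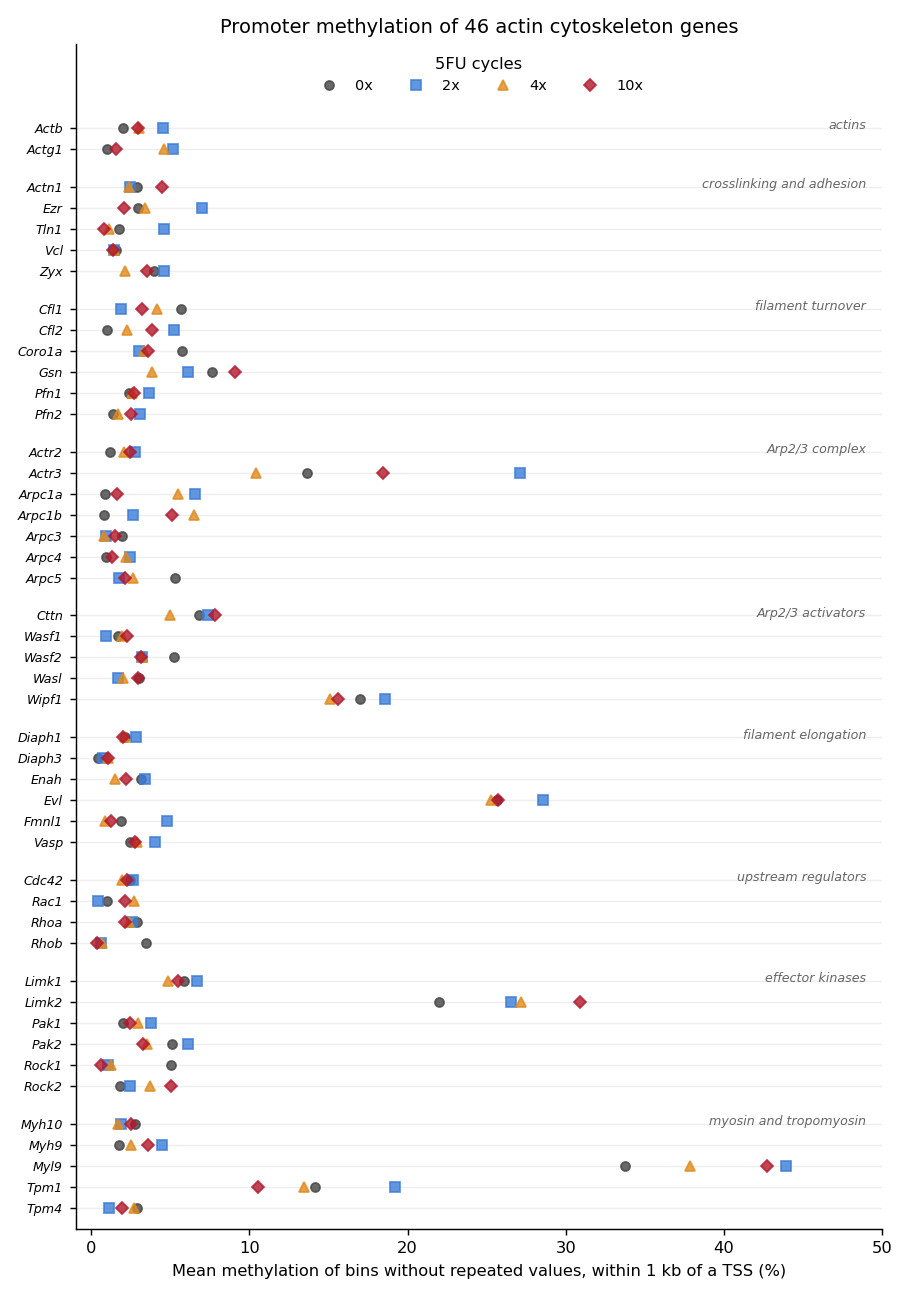
Mean methylation in percent over the bins without repeated values of 46 genes, grouped by role down the page, with 1 marker for the mean of each group (0x, 2x, 4x, 10x). 40 genes stay under 10% in every group, and Myl9, Evl, Limk2, Wipf1, Tpm1 and Actr3 have the highest 0x levels. In all of these except Myl9, a single bin carries most of the 0x level.

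The level varied with position along the promoter. Over member bins without repeated values the 0x mean was 30.8% from 1000 to 750 bp upstream (5 bins) and 3.02% in the last 250 bp before the start (36 bins), against 42.7% and 10.3% for all genes. Downstream, member bins averaged 2.76% from 250 to 500 bp and 10.5% from 750 to 1000 bp. In all deposited bins the member means were 40.7% at the upstream edge and 6.92% just before the start, against 66.7% and 19.3% for all genes. In each 250 bp interval shown, the mean of the actin cytoskeleton genes was below that of all genes, which is a description of bins that are not independent.

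**Figure D2:**
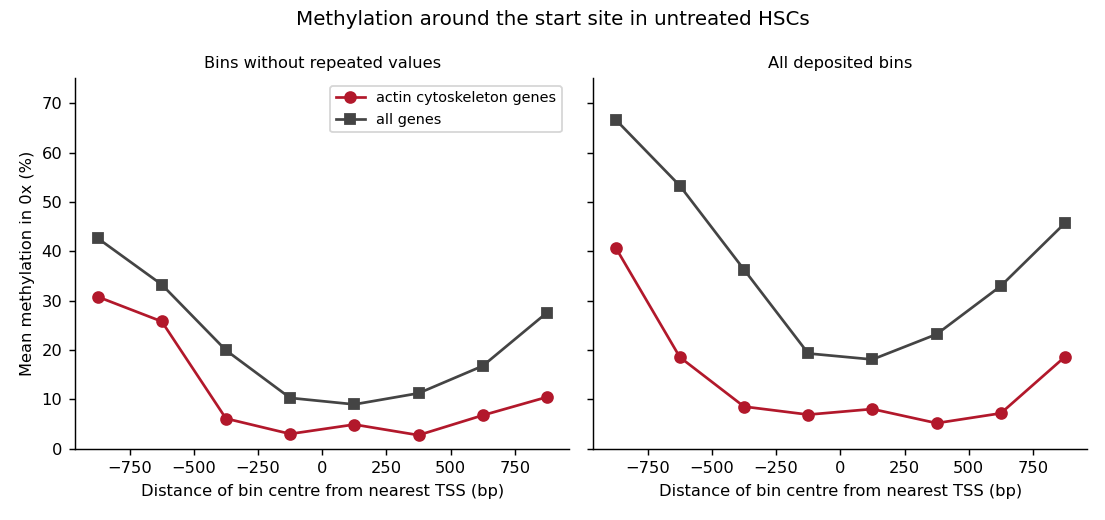
Mean 0x methylation in percent against distance in bp from the nearest TSS, in intervals of 250 bp, for the actin cytoskeleton genes and for all genes. In bins without repeated values (left) the members have 3.02% just before the start where all genes have 10.3%.

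Several of the genes have more than 1 start, and their starts differed. Starts within 1 kb of each other were joined, which gave 71 member starts with bins, and 13 genes had several. Over all deposited bins in 0x, 53 starts (74.6%) were under 20% and 8 (11.3%) over 80%, against 43.6% and 33.1% of 35222 starts of all genes. Member starts under 20% had a median of 8.09 CpGs per bin and those over 80% had 2.42. Evl had 15.8% at its first start and 81.0% and 100% at the next ones, Limk2 had 24.6%, 20.03% and 89.97%, Gsn 22.1%, 89.9% and 5.59%, and Pak1 5.00%, 100% and 22.9%. The Evl values of 81.0% and 100% rest on 2 bins each. The Pak1 value of 100% rests on 1 bin with 1 CpG, at a start that only predicted transcripts use. Actn1 had 1.30% at its outermost start and 100% at an internal start that only predicted transcripts use. Wipf1 had 10.9% at its outermost start and 96.0% at an internal one that rests on the printed bin. In Enah the methylated start was the outermost one, at 97.5% and used only by predicted transcripts, against 3.60% at the start of the curated ones.

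The sequences at the start sites of Limk2 are shown because its starts differ in level, from 20.03% to 89.97% in 0x over all deposited bins. They are the 250 bases before the RefSeq starts on the minus strand, at chr11:3409239-3409488, chr11:3371405-3371654 and chr11:3356142-3356391 of GRCm38.p6, the assembly of mm10, with CpGs in capitals.
Limk2 first start: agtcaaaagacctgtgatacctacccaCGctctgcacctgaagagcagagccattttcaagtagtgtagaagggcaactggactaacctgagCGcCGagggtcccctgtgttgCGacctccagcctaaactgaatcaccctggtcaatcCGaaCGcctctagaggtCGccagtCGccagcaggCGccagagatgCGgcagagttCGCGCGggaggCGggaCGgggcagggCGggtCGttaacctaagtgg
Limk2 second start: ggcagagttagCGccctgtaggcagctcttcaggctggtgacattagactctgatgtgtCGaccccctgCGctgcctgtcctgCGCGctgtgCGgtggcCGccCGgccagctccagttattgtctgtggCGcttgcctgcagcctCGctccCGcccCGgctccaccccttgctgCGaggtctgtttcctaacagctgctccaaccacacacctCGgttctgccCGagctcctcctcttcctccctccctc
Limk2 last start: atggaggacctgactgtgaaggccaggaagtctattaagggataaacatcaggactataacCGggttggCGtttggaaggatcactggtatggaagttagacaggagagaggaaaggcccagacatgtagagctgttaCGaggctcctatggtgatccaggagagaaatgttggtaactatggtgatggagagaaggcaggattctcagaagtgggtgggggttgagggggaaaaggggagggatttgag
They hold 17, 15 and 3 CpGs. In the window from 250 bases before to 50 after each start, the deposited bins averaged 0.451%, 2.55% and 100% in 0x, on 2, 2 and 1 bins. The window with 3 CpGs was at 100% in all 4 groups. RefSeq promoter windows of that length were matched for 43 of the 50 genes (54 windows). Of the member windows with bins, the 47 with 10 CpGs or more had a median of 1.45% and at most 30.3%. The 2 windows with fewer CpGs had 50% and 100%, on 1 bin each. Member windows held a median of 23 CpGs (1 to 55), against 7 in 32851 windows of all genes. The GC box GGGCGG, on either strand, was present in 42 of 54 member windows (77.8%) and in 35.7% of all.

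Many genes of the cytoskeleton are known targets of serum response factor, which binds the CArG box, a run of 6 A or T between CC and GG. Searched by that definition, which reads alike on both strands, the box was present in 4 of 54 member windows (7.41%) and in 1.63% of all windows. They were Myl9, Arpc4, Actg1 and Vcl, with the first base of the box 161, 250, 90 and 227 bases before the start. A match is a stretch of letters and not a bound site. The 250 bases before the Myl9 start (chr2:156775214-156775463, plus strand, GRCm38.p6) are shown with the CArG box in capitals, because they hold the box and bins of low methylation in the gene with the highest level. They precede the more downstream of its RefSeq starts, whereas the 409 bp of the Myl9 bin are counted from the upstream one, base 156775408, which lies within them.
Myl9 upstream of the start: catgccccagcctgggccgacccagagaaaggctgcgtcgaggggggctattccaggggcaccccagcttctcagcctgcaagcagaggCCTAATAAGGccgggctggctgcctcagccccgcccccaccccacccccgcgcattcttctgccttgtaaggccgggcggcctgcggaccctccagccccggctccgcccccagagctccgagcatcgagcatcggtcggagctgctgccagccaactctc
This stretch holds 16 CpGs. The deposited bins of the Myl9 window averaged 3.96% in 0x, so the high level of the gene came from bins farther out. The Arpc4, Actg1 and Vcl windows had 0.112%, 0.663% and 1.45% in 0x.

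After 5FU, no bin and no promoter of the actin cytoskeleton genes passed the test. With limma on the percents, called at a Benjamini-Hochberg adjusted p under 0.05 and a difference of at least 10 percentage points, 0 of 166 member bins were called in 2x, 4x or 10x against 0x, where 0.00357%, 0.00713% and 0.0131% of all 84131 bins were called. A slope over the number of cycles was called in 0 member bins and in 0.00119% of all. Averaged per gene, 0 of 46 promoters passed an adjusted p under 0.05 in each comparison, and of all 14937 genes 0%, 0% and 0.0335% did. At an unadjusted limma p under 0.05 the promoters numbered 1, 0 and 0 of 46, below the 3.27%, 3.78% and 6.12% of all genes. The 1 promoter was that of Cfl1, cofilin of non-muscle cells, with 1.85 ± 1.30% in 2x (SD, n = 6) and 5.68 ± 2.96% in 0x (SD, n = 4), a difference of -3.83 points (SE 1.48, adjusted p = 0.9999).

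By bin, an unadjusted limma p under 0.05 with at least 10 points was reached by 3 of 166 member bins in 2x (1 higher, 2 lower), where 0.663% of TSS bins were higher and 0.909% lower. In 4x it was reached by 1 bin (lower), where 0.897% were higher and 0.718% lower, and in 10x by 3 bins (2 higher, 1 lower), where 1.18% were higher and 0.922% lower. An unadjusted slope over cycles was found in 4 bins, 2 of each sign, where 2.17% of TSS bins had a positive and 0.66% a negative one. The slope count rested on the bins used, with 30 member bins when those with a group at 0 or 100 throughout were added and 2 with the label numbers as a block. The member shares were 1.81% (2x), 0.602% (4x), 1.81% (10x) and 2.41% (slope), near or below the background of both signs together.

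The Wasf2 bin, just upstream of the gene for WAVE2, an activator of Arp2/3 at the leading edge, was the one in which treated and untreated samples separated after every number of cycles. The 0x samples had 8.05, 10.5, 17.8 and 12.1%. In 2x the values ran from 0 to 5.52% with a median of 0%, in 4x they were 3.50, 4.06, 2.31 and 0%, and in 10x they ran from 0 to 7.78% with a median of 1.19%. All 16 treated samples lay below every 0x sample, which was the case, in either direction, in 0.0487% of TSS bins. The differences were -10.6 points in 2x (SE 2.34, unadjusted p = 0.00135, adjusted p = 0.564), -9.64 in 4x (SE 2.44, adjusted p = 0.975) and -10.0 in 10x (SE 2.27, adjusted p = 0.337), from limma over all bins. None of these passed the adjustment, and the 3 comparisons share the 0x samples. The adjacent bin on the start, with 10 CpGs, did not follow, with means of 2.91%, 3.75%, 4.15% and 3.93% in 0x, 2x, 4x and 10x. Within the label numbers 01 to 12 and 13 to 34, which each hold samples of all groups, the 10x difference was -4.92 and -14.0 points.

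The Myl9 bin 409 bp before the start was higher on average after each number of cycles. Its values were 71.0, 52.3, 27.7 and 48.02% in 0x, 51.7 to 100% with a median of 92.9% in 2x, 74.2, 76.2, 57.1 and 73.8% in 4x, and 63.2 to 100% with a median of 83.8% in 10x. The ranges overlapped in every comparison, because the highest 0x sample reached 71.0%. Against 0x the difference was +34.9 points in 2x (SE 11.6, unadjusted p = 0.014, adjusted p = 0.998) and +33.2 in 10x (SE 8.84, unadjusted p = 0.00429, adjusted p = 0.449), and the 4x samples averaged 70.3% against 49.7% in 0x (limma, adjusted p = 0.975). The 10x difference was 18.9 points within the first set of label numbers and 46.2 within the second. Of its neighbours, the bin 509 bp before the start had 73.2%, 80.8%, 65.0% and 84.3% in 0x, 2x, 4x and 10x, and the bin 9 bp before the start stayed between 1.64% and 6.41% in all group means.

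**Figure D3:**
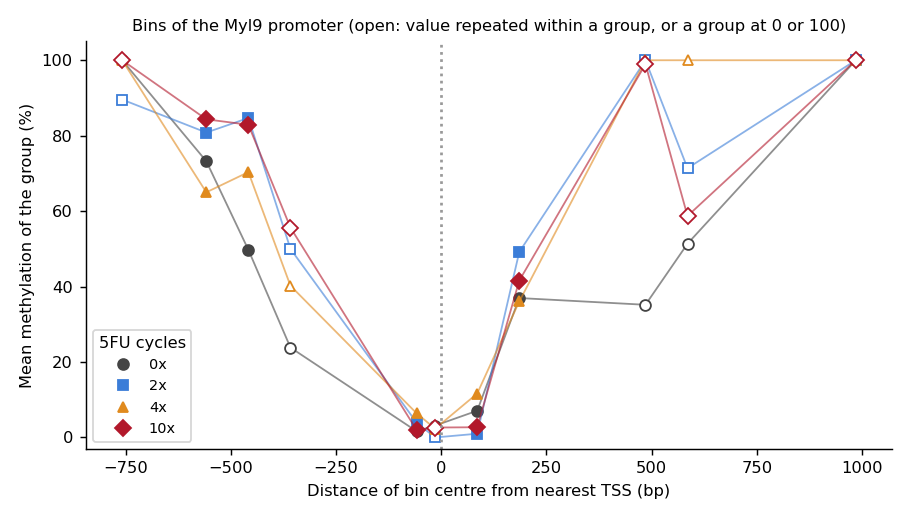
Group means in percent of the deposited bins of Myl9 against distance in bp from the nearest TSS, with filled markers for bins without repeated values and open ones for the rest. Values are near 0 at the start and high on both flanks, and at the bin whose near edge is 409 bp before it the 2x, 4x and 10x means are 84.7%, 70.3% and 82.9% where 0x has 49.7%.

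The upstream Actr3 bin varied widely within groups. Its 0x values were 30.99, 26.3, 11.7 and 56.9%, the 2x values ran from 0 to 100% with a median of 75%, the 4x values were 50.4, 38.0, 0 and 14.5%, and the 10x values ran from 38.1 to 60.3% with a median of 50.5%. The 10x difference was +19.3 points (SE 7.85, unadjusted p = 0.0354, adjusted p = 0.751 by limma), and the groups overlapped. It was +12.7 points without 0x sample 13. A second Actr3 bin, 428 bp past the start, ran from 0 to 3.78% in 2x and from 0 to 4.5% in 10x, against 7.14 to 9.5% in 0x, without overlap and by less than 10 points.

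The upstream Cfl1 bin was lower on average after each number of cycles. It had 17.7, 0, 35.7 and 34.6% in 0x, 0 to 5.56% with a median of 0% in 2x, 0, 13.3, 0 and 0% in 4x, and 0 to 20.2% with a median of 10.5% in 10x. The 2x difference was -20.6 points (SE 6.42, unadjusted p = 0.0103, adjusted p = 0.998 by limma), and 1 of the 0x samples was itself at 0%. This bin, with 2 CpGs, is 1 of the 6 bins in the Cfl1 promoter mean given above.

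The internal Wipf1 bin was almost fully methylated in 0x, at 90, 93.9, 100 and 100%. It ran from 54.4 to 100% with a median of 89.2% in 2x, stood at 84.5, 82.1, 57.1 and 80% in 4x, and ran from 81.2 to 98.1% with a median of 86.7% in 10x. The 4x samples lay below all 0x samples, and 2 samples of 2x and 1 of 10x reached the 0x range. The 4x difference was -20.0 points (SE 6.30, unadjusted p = 0.0147, adjusted p = 0.975 by limma). The other 5 bins of Wipf1, at its outermost start, were under 10% in every group mean.

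**Figure D4:**
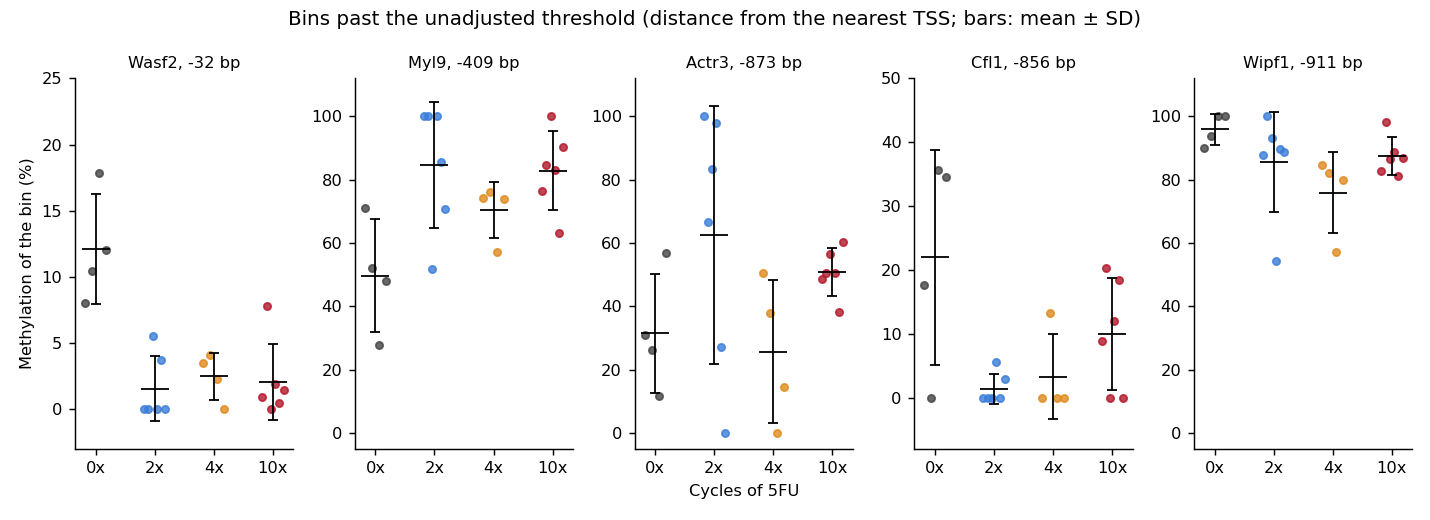
Methylation in percent of the 5 bins with a difference of at least 10 points at an unadjusted p under 0.05, with 1 point per sample (4 in 0x, 6 in 2x, 4 in 4x, 6 in 10x) and bars for mean ± SD. Only in the Wasf2 panel do all treated samples (0 to 7.78%) lie below every 0x sample (8.05 to 17.8%).

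Counting bins whose groups did not overlap, at any size, gave 2 of 166 in 2x, 4 in 4x and 2 in 10x, where 0.593%, 1.84% and 1.09% of TSS bins did not overlap. In 2x and 10x they were the Wasf2 bin and the Actr3 bin past the start, all lower. In 4x they were the Wasf2 and Wipf1 bins, a bin in Enah (0 to 2.65% in 4x and 3.87 to 11.1% in 0x) and a bin of Rhoa at 1.38 to 2.96% in 4x and 0 to 0.861% in 0x, the only higher one. The Rhoa bin holds 16 CpGs in an exon and was also 1 of the 4 with an unadjusted slope, 0.31 points per cycle (SE 0.143, limma adjusted p = 0.975). The other 3 were the Wasf2 bin and a pair of Tpm1 bins. The Tpm1 bin with a single CpG, on an exon, averaged 73.8%, 81.7%, 62.3% and 52.5% in 0x, 2x, 4x and 10x, a slope of -2.70 points per cycle (SE 0.894, unadjusted p = 0.00700, adjusted p = 0.975). The slope bins fall outside the rule by which bins were named and were picked with their values in view.

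Of the promoter means, those of Actr3, Myl9 and Arpc1a differed most in 2x, at +13.5, +10.2 and +5.68 points. The Actr3 mean spanned 1.23 to 66.7% in 2x and 6.80 to 21.8% in 0x, and the Actr3 difference was +5.55 without 2x sample 03. The Arpc1a difference came from 1 sample at 33.3%, without which it was +0.326. In 4x the largest were Arpc1b (+5.69), Limk2 (+5.20) and Arpc1a (+4.63), and in 10x Myl9 (+8.97), Limk2 (+8.95) and Actr3 (+4.77). In 4x, single samples also weighed heavily, since Arpc1b was at +2.73 without 4x sample 20, Arpc1a at +2.83 without 4x sample 05, and Limk2 at +1.75 without 4x sample 19 and +9.19 without 0x sample 01. In 10x, Myl9 was at +5.88 without 10x sample 31, and Actr3 at +2.48 and +7.49 without 0x samples 13 and 14. Limk2 stood at 19.5 to 45.7% in 10x and 17.03 to 33.95% in 0x. The lowest adjusted p among these 9 differences was 0.857 (limma). Over all 166 bins, 126 (2x), 137 (4x) and 141 (10x) differed from 0x by under 5 points, while 14, 8 and 10 (8.43%, 4.82% and 6.02%) by at least 10, against 11.6%, 9.75% and 9.04% of TSS bins.

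The mean over the 166 bins was 6.06 ± 0.364%, 7.29 ± 0.942%, 5.86 ± 0.399% and 6.30 ± 0.844% after 0, 2, 4 and 10 cycles (SD, n = 4, 6, 4 and 6). In 2x, 5 of 6 samples lay above all 0x samples. Much of that order was shared by all TSS bins. There, 2x samples 03, 04, 17 and 18 (14.23%, 14.38%, 14.32% and 14.27%) also lay above the highest 0x sample (14.16%). The differences were +1.23 (SE 0.426), -0.20 (SE 0.27) and +0.24 (SE 0.39) points, where those over all TSS bins were +0.353, -0.03 and +0.123. The 2x difference was 2.42 within label numbers 01 to 12 and 0.537 within 13 to 34, so that it was not alike in both, and the 4x difference had opposite signs there (0.321 and -0.720). No p is given for a mean over genes chosen as a list. By role, the 9 bins of the actins averaged 1.46%, 4.87%, 3.89% and 2.16% after 0, 2, 4 and 10 cycles, and the 17 bins of the Arp2/3 complex 4.61%, 6.95%, 4.23% and 4.98%. The 19 bins of the myosin and tropomyosin genes averaged 14.4%, 18.7%, 15.2% and 15.7%. The 2x mean was the highest in each of these 3 roles. So it was in the crosslinking and adhesion genes (2.76%, 4.30%, 2.20% and 2.50%) and the filament elongation genes (6.01%, 7.23%, 5.58% and 5.83%). It was not in the 26 bins of the filament turnover genes, at 3.773%, 3.59%, 2.97% and 3.88%, or the 21 bins of the Arp2/3 activators, at 7.96%, 7.77%, 6.54% and 7.42%. Nor was it in the upstream regulators (2.41%, 1.90%, 2.03% and 1.95%) or the effector kinases (7.14%, 7.97%, 7.55% and 8.27%).

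**Figure D5:**
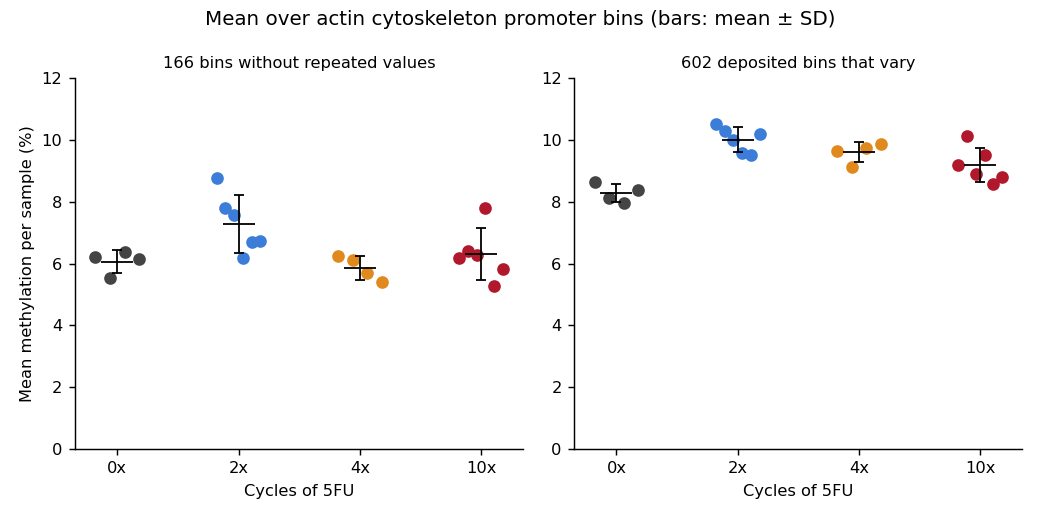
Mean methylation in percent per sample over actin cytoskeleton bins by number of 5FU cycles, with bars for mean ± SD. Over the 166 bins without repeated values (left) only the 2x samples sit mostly above 0x, and over the 602 deposited bins that vary (right) 15 of 16 treated samples lie above all 0x samples. The 602 bins include values that recur within a group, which draws samples of a group together. Over all varying TSS bins, every 10x sample (at least 25.13%) lay above every 0x sample (at most 25.03%). Of the 2x and 4x samples, only 2x samples 04 and 17 (25.05% each) and 4x sample 06 (25.34%) did.

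The remaining bins were read apart. Of the 324 with a group at 0 or 100 throughout, 88 were at 0 and 25 at 100 in all 20 samples, and 198 of the 211 that vary had a 0x mean under 10%. Of the 231 with repeated values, 175 had a 0x mean under 10% and 26 one over 50%. Repeats fell within 2x in 159 of them, within 10x in 83, within 0x in 59 and within 4x in 39. Over the 602 deposited bins that vary, the sample means averaged 8.28%, 10.0%, 9.60% and 9.19% after 0, 2, 4 and 10 cycles, differences of +1.75, +1.33 and +0.919 points where all TSS bins had +0.167, +0.286 and +0.492.

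In the deposited values with every varying bin included, limma called 32 of 492 member bins in 2x (20 higher), 16 of 540 in 4x (11 higher) and 18 of 553 in 10x (9 higher), or 6.50%, 2.96% and 3.25%, below the 11.1%, 6.23% and 6.95% of TSS bins. Of these calls 30, 16 and 15 were in bins with repeated values, and in 28, 15 and 15 a group held a single value. A filled value narrows the spread within its group, and how far these calls come from filling was not tested. The largest were of that kind. Bins of Actn4 and Myh10 were at 100% in every 2x sample and 0% in every 0x sample, a bin of Cdc42 at 100% in every 4x sample and 0% in every 0x sample, a bin of Actn1 at 0% in every 4x and 10x sample and 100% in every 0x sample, and a bin of Tpm4 at 0% in every 10x sample and 100% in every 0x sample.

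Another 97 genes of the actin machinery, listed by role, were read in the same way. Of these, 79 had bins without repeated values, with a median of 3.15% in 0x and 55 under 10%. That was near the level of all 14937 genes, with a median of 3.59% and 10531 (70.5%) under 10%. None passed an adjusted p under 0.05 (limma), and at an unadjusted p under 0.05 there were 0 in 2x, 6 in 4x (3 higher, 3 lower) and 7 in 10x (2 higher, 5 lower). These are 0%, 7.59% and 8.86% of the 79, where 3.27%, 3.78% and 6.12% of all genes reached it. Tagln (transgelin, an actin-binding protein of smooth muscle) averaged 55.6% in 4x and 52.0% in 10x, and 27.2% in 0x (+28.3 points, SE 9.59, adjusted p = 0.976, and +24.8, SE 9.60, adjusted p = 0.728). Fmnl3, a formin, averaged 4.88% in 4x and 17.2% in 0x (-12.3 points, SE 2.84, adjusted p = 0.976).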

How the data were processed

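HSC DNA of 20 samples in 4 groups had been profiled by RRBS. The authors used Trim Galore 0.4.3 for trimming, Bismark 0.23.1 for alignment to mm10 and methylKit 1.22.0 with a minimum coverage of 10 reads, averaged CpGs in bins of 100 bp and imputed missing bins by the group mean; the deposited values are percent methylation per bin and sample, without reads or depth. The errors given are therefore from the spread between samples alone.

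Groups were taken from the sample titles. Bins were assigned to TSSs with RefSeq (GRCm38.p6), and classed by whether values recur exactly within a group. A tolerance of 1e-06 served only to count recurring values equal to the mean of the other samples. limma 3.58.1 in R 4.3.3 was fitted to the percents of 2 groups at a time over all 84131 bins without repeated values or 14937 promoters, with Benjamini-Hochberg adjustment, in place of a test on reads. The fit was tested on simulated data. Named were the member bins of largest difference (at most 4 per comparison) at an unadjusted p under 0.05 and at least 10 points, the 6 highest and 6 lowest promoters, the 3 largest promoter differences per comparison, beta and gamma actin, the Arp2/3 subunits, Rhoa, Rac1, Rac2, Cdc42, and 2 bins with repeated values per comparison. The members and lists were chosen with earlier results of these data known. Alternatives changed the set of bins, the window (500 bp), the transcripts, the fit, the scale, a block for the label numbers, and each sample in turn. Python 3.11.15 with pandas 2.3.3 and numpy 2.4.6 did the joins, the R package data.table (version 1.17.8) read them, and matplotlib 3.10.9 drew the plots.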

Additional observations from a re-analysis of the deposited data

Results flagged for a closer look

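Single samples stood far from the rest of their group, by Dixon's criterion, in 13 of 60 groups of 4 to 6 samples. The criterion flags about 1 in 20 groups of independent, normally distributed values. That rate cannot be set against the count here, because many percents stand at 0 and named bins also enter the promoter means. A group with all but 1 sample at 0 is flagged whatever the size of that value. Among the bins, Wipf1 had 54.4% in 2x sample 16 (others 87.7% to 100%) and 57.1% in 4x sample 19 (others 80% to 84.5%). Myl9 had 57.1% in 4x sample 19 (others 73.8% to 76.2%), Wasf2 7.78% in 10x sample 12 (others 0 to 1.86%) and Cfl1 13.3% in 4x sample 06 (others 0). Among the promoter means, Arpc1a had 33.3% in 2x sample 17 (others up to 4.79%) and 3.47% in 0x sample 13 (others 0). Arpc1b had 12.6% in 2x sample 16 (others up to 3.31%), 19.5% in 10x sample 12 (others up to 6.22%) and 3.23% in 0x sample 13 (others 0). Limk2 had 33.95% in 0x sample 01 (others 17.03% to 19.6%). Wipf1 had 17.9% in 4x sample 06 (others 13.9% to 14.5%) and 20.6% in 10x sample 12 (others 13.8% to 15.1%). Of these values, 3 belong to 10x sample 12. The treated groups were also compared, without a test, in 15 results. In none did every sample of 1 treated group lie above the 0x mean and every sample of another below it. Smaller differences between 2x, 4x and 10x were not examined by this rule.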

How the results depend on the processing

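The counts of 0 called bins and promoters held under every alternative with bins without repeated values, each sample left out included. With bins in which a group is at 0 or 100 throughout, 1 member bin was called in 2x (Wasf2, adjusted p = 0.0268 by limma), and the mean differences were 0.389, 0.475 and 1.02 points in 2x, 4x and 10x. With all deposited bins that vary, 32, 16 and 18 member bins, 21 slopes and 10, 5 and 7 promoters were called, and the 4x mean difference was 1.33 points. In that setting the Wasf2 bin had adjusted p = 0.00289 (2x) and 0.00894 (10x), the Cfl1 bin 0.0428 (2x), the Myl9 bin 0.035 (10x) and the Myl9 promoter 0.0336 (2x, +14.8 points); over all alternatives the Wasf2 bin ranged up to 0.868 in 2x and 0.675 in 10x. Within 500 bp of a TSS the Limk2 promoter was at -4.21 in 4x and the Actr3 promoter at -2.49 in 10x, opposite in sign, the 10x mean difference turned to -0.303, the Actr3 promoter was at +4.64 in 2x and the Limk2 promoter at +0.645 in 10x; the window leaves out distal bins. Leaving out 1 sample, the 2x mean difference ran from 0.934 to 1.45, the 4x one from -0.38 to -0.0422 and the 10x one from -0.062 to 0.443, negative, among these, only without 10x sample 32. It was 0.0635 in 10x without 0x sample 02. The Wasf2 bin differed by -11.9 to -8.65 points (2x) and -11.4 to -8.12 (10x). At the unadjusted threshold, member bins numbered 2 to 4 (2x), 1 to 4 (4x) and 1 to 4 (10x) with 1 sample left out. The 4x count was 3 or 4 without 0x samples 01 or 02 or 4x samples 06 or 19, and the 10x count 1 without 0x sample 13 or 10x samples 11, 31 or 32. Slopes numbered 2 to 5, with 2 without 0x samples 01 or 02 or 10x samples 11, 31 or 32. Promoters numbered 0 to 3 in 2x (0 without 0x samples 13 or 14 or 2x sample 04, 2 or 3 without 0x sample 01 or 2x samples 16 or 18), 0 to 1 in 4x (1 without 0x samples 01 or 14 or 4x sample 06) and 0 to 4 in 10x (1 to 4 without 0x samples 01, 02 or 14 or 10x samples 12 or 33). With bins in which a group is at 0 or 100 throughout, the unadjusted counts were 6, 1 and 5 bins, 30 slopes and 7, 3 and 3 promoters (2x, 4x, 10x), and with all deposited bins that vary 38, 26 and 26 bins, 66 slopes and 16, 11 and 11 promoters. Without the minimum of 10 points 7, 5 and 6 bins passed. Promoters numbered 4, 2 and 2 within 500 bp, 3, 0 and 2 in the fit of all 4 groups and 0, 1 and 1 with the log2 ratio. With the label numbers as a block there were 2 bins in 4x and 2 slopes, and in the fit of all 4 groups 2 bins in 4x. No paired analysis was possible because the groups share no sample numbers. Depth is unknown, and filled values limit all counts over deposited bins. Unrecognised filled values can also remain in the bins without repeated values.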
